A study of Homo sapiens with 8 samples.

Results

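Cathepsins are the proteases that break down proteins inside lysosomes. The 10 listed cathepsin genes were chosen by symbol, with earlier results of these data known. Of these, 8 have a row of their own among 27204 genes and loci with an expression value. Of these 8 genes, 7 were abundant enough to be tested. CTSD and CTSK are listed only inside loci merged with other genes, so no value can be given to either. The eighth separate gene, CTSZ, lay below the level needed for a test.

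RNA was sequenced from H1703, an established human cell line from a squamous carcinoma of the lung, with 2 libraries in each of 4 groups. Control cells, labelled iluc for luciferase, and cells with a knockdown of SPIB were each taken attached to the dish or floating, here called detached. SPIB is an ETS family transcription factor best known from B lymphocytes. The labels of all 8 samples carry a note of 12 hours of floating, the attached ones included, and they do not describe the knockdown reagent or say whether single clones were used. The series title sets the comparison in the context of resistance to anoikis, in which cells die once they lose their anchorage, and of the autolysosomal process. The labels call the libraries biological repeats but name no separate cultures, so p-values here rest only on how far these libraries vary, which may be technical.

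Most cathepsins are cysteine proteases of the papain fold, while cathepsin A is a serine carboxypeptidase and cathepsin D an aspartic protease. They are made as inactive precursors, tagged with mannose 6-phosphate in the Golgi, carried to lysosomes by mannose 6-phosphate receptors and cut to their active form in the acid lumen. Cystatins inhibit the cysteine cathepsins. Transcription factors of the TFEB family bind a short E-box word near many lysosomal genes, and in lung and other tumours secreted cathepsins are known for cutting extracellular matrix.

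Levels are in FPKM, fragments per kilobase of transcript, scaled to library size, which corrects for gene length and so allows levels of different genes to be compared. FPKM summed to between 707883 and 786285 per library, and by the steps between low values read depth spanned a 1.60-fold range. A locus that merges the mitochondrial protein genes is listed at 0 in 1 library of each group and at 47540 to 47980 FPKM in the other. Of 7 squamous markers, the keratins KRT5, KRT6A and KRT14 lie in merged loci, and the 4 with rows of their own (TP63, SOX2, DSG3 and PKP1) summed to only 1.13 to 3.04 FPKM, with TP63, the defining squamous factor, at no more than 0.318 FPKM. SPIB is itself listed only within a merged locus, so groups are named by their labels.

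Among the 8 listed cathepsins with a row of their own, CTSL was the most abundant in all 4 groups. It was followed by CTSB and CTSA, then by CTSC, while CTSO, CTSH, CTSS and CTSZ did not exceed 2.41 FPKM. In attached control cells the group means were 174 ± 1.02 FPKM for CTSL, 105 ± 5.72 for CTSB, 81.2 ± 0.351 for CTSA and 15.6 ± 1.04 for CTSC (SD, n = 2). CTSL stood at rank 696 among all genes and loci by mean FPKM in attached control cells and at rank 343 in detached control cells. The order CTSL, CTSB, CTSA, CTSC held in each group, and within a group no library of a higher gene reached down to a library of the next. Among the 4 genes at the low end the order was less firm. In detached control cells the libraries of CTSS overlapped in FPKM with those of CTSH and with those of CTSO, and in detached knockdown cells those of CTSH with CTSO and of CTSO with CTSS did.

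**Figure D1:**
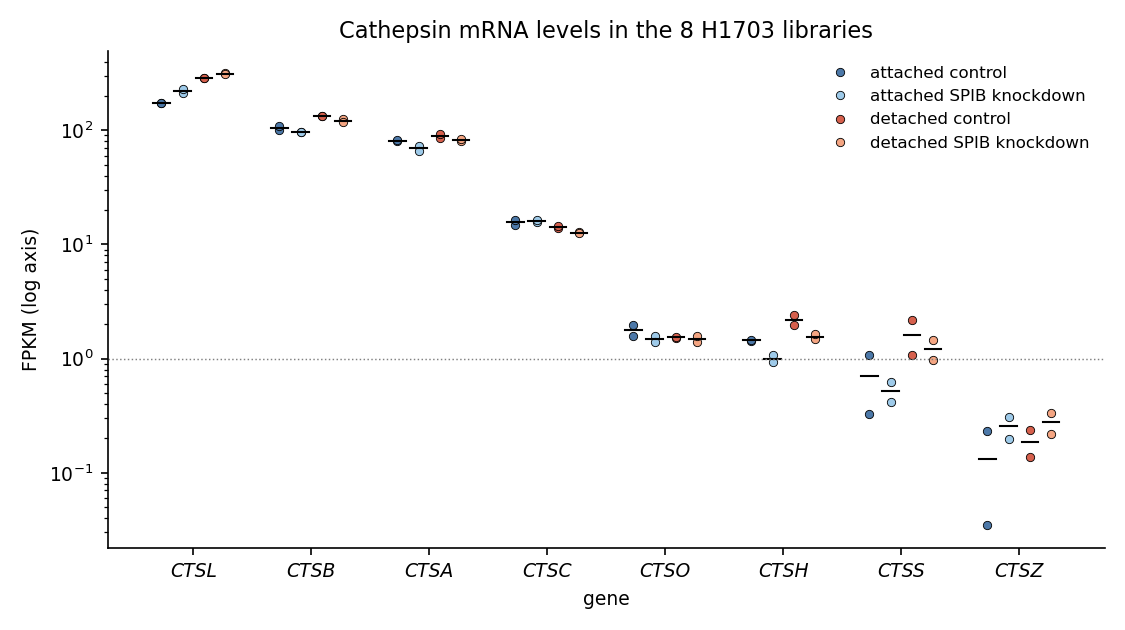
FPKM (log axis) of the 8 separately measured cathepsins in each library, coloured by group, with the group mean as a bar and the dotted line at 1 FPKM. CTSL is highest in every group, and its 4 detached libraries, at 286 to 315 FPKM, lie above its 4 attached ones, at 174 to 229 FPKM.

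CTSL and CTSV, its close relative, lie on chromosome 9, and a stretch of 23 bases upstream of their start sites is shared. This stretch, which holds a CCAAT box, occurs in 2 of 35116 upstream windows in the RefSeq table, those of CTSL and CTSV. It runs from 96 to 74 bases before the start of CTSL and from 86 to 64 bases before that of CTSV. The 250 bases before the start are shown for CTSL and CTSV, for CTSA, which holds the TFEB-type word, and for CTSC. The group means of CTSC were lower in detached cells, where those of CTSL were higher, but the fall in control cells did not pass the test. The sequences are RefSeq's (GRCh38.p14), 5′ to 3′ on the strand of each gene, with CCAAT and CACGTG on either strand in capitals. The coordinates are chr9:87725869-87726118 on the plus strand for CTSL, chr9:97039143-97039392 on the minus strand for CTSV, chr20:45891085-45891334 on the plus strand for CTSA and chr11:88337737-88337986 on the minus strand for CTSC.
CTSL: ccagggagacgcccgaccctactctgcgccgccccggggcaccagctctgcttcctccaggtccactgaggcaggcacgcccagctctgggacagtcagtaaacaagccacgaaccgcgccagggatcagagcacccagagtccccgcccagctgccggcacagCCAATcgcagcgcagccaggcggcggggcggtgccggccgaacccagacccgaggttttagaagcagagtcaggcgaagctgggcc
CTSV: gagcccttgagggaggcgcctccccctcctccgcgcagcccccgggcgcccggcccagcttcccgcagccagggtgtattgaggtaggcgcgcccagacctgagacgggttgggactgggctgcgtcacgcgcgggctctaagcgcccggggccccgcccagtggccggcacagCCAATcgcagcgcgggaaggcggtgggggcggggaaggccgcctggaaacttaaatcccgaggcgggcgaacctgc
CTSA: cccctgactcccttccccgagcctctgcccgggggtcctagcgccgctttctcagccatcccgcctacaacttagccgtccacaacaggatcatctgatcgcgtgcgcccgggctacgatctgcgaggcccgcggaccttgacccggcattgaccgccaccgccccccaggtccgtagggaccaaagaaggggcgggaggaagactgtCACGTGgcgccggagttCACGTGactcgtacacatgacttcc
CTSC: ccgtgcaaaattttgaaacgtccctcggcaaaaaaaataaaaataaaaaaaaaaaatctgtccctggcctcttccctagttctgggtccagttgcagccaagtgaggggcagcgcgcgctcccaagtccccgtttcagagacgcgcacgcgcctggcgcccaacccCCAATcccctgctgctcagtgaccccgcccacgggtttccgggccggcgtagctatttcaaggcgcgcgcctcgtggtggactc
shared by CTSL and CTSV: gccggcacagCCAATcgcagcgc

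Of the 10 listed genes 6 have an upstream window in the table, as do 4 of the 5 other family genes. The E-box CACGTG, which reads the same on both strands, occurs in 6.345% of all 35116 windows of 250 bases. CTSA holds it at 2 places, 42 to 37 and 25 to 20 bases before its start, CTSF at 2 places and CTSD at 1. CTSL, CTSV, CTSC, CTSH and CTSZ hold none in this window. The CCAAT word or its reverse complement ATTGG, found in 32.01% of windows, occurs at 1 place in each of CTSL, CTSV and CTSC. The ETS core GGAA or TTCC is in 92.74% of windows and in each cathepsin window but that of CTSZ, and the longer ETS word GAGGAAGT or ACTTCCTC, present in 2.167% of windows, is in none of the cathepsin windows. The GC box GGGCGG or CCGCCC, in 42.64% of windows, occurs in those of CTSL, CTSV, CTSA, CTSC, CTSD, CTSH and CTSZ. A match of letters is a description of the window and no evidence of binding.

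**Figure D2:**
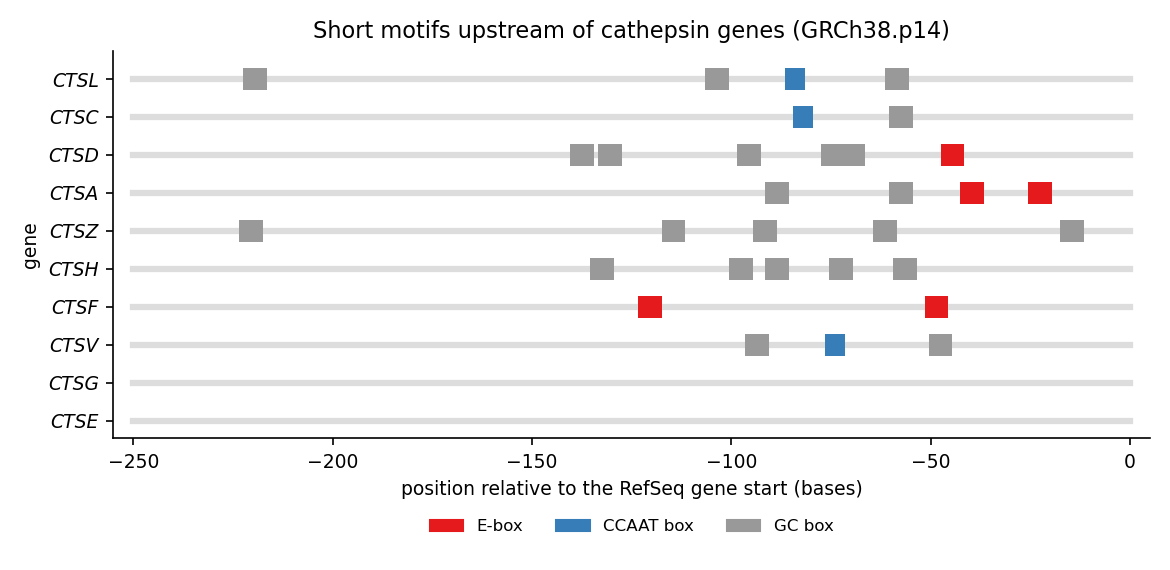
Positions of the E-box (CACGTG), the CCAAT box and the GC box (GGGCGG), each on either strand, over the 250 bases before the RefSeq start of the 10 family genes that have a window (horizontal axis, bases from the start). CTSA carries 2 E-boxes within 42 bases of its start, and the CCAAT boxes of CTSL and CTSC lie 86 to 80 bases before theirs.

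Detachment of control cells raised CTSL and CTSB, the 2 most abundant measured cathepsins. CTSL, a cysteine endopeptidase of the lysosome (XLOC_053165, chromosome 9, 90340434 to 90346372, hg19), measured 175 and 174 FPKM in the attached control libraries and 286 and 289 FPKM in the detached ones. The groups lay far apart relative to the spread within them, and CTSL rose 1.65-fold on FPKM + 1 (log2 fold change 0.72 ± 0.04 SE, limma adjusted p = 0.00033). This was the fold change at rank 131 from the highest of 13438 tested genes. CTSB, which cuts proteins both internally and as a dipeptidyl carboxypeptidase (XLOC_051493, chromosome 8, 11700033 to 11726957, hg19), measured 101 and 109 FPKM attached and 133 and 133 FPKM detached. CTSB rose 1.27-fold (0.34 ± 0.05, adjusted p = 0.0204). CTSL was called without each of the 8 libraries in turn. The call of CTSB was lost without attached control replicate 1 (adjusted p = 0.101) or 2 (0.0567), without detached control replicate 1 (0.0995) or 2 (0.116), and without an intensity trend in the variance model (0.0875).

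Of the 7 tested cathepsins, 2 rose, none fell and 5 did not pass the test in this comparison, where 3.15% of all tested genes were called and 0.893% were called higher. The members' median log2 fold change was 0.34 beside −0.01 over all tested genes. The list was chosen with earlier results known, so this and later medians of the members are descriptions and no test. The tested family genes CTSV (0.14) and CTSF (−0.11) are outside the list. CTSA, the carboxypeptidase that also protects lysosomal beta-galactosidase and neuraminidase (chromosome 20, 44518783 to 44527459, hg19), was at 80.9 and 81.4 FPKM attached and 85.1 and 92.5 FPKM detached (log2 fold change 0.13 ± 0.06, adjusted p = 0.3). CTSC, the dipeptidyl peptidase that activates granule proteases of immune cells (chromosome 11, 88026760 to 88150269, hg19), was at 14.9 and 16.4 FPKM attached and 13.8 and 14.5 FPKM detached (−0.13 ± 0.08, adjusted p = 0.37). The libraries of the compared groups did not overlap for 6 of the 7 members, where this held for 51.9% of all tested genes.

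In knockdown cells detachment raised the same pair of genes and lowered CTSC. CTSL measured 212 and 229 FPKM in the attached and 315 and 311 FPKM in the detached knockdown libraries, a 1.42-fold rise (log2 fold change 0.51 ± 0.04, adjusted p = 0.00156). CTSB measured 96.5 and 95.8 FPKM attached and 125 and 118 FPKM detached (0.33 ± 0.05, adjusted p = 0.0143). CTSC measured 15.9 and 16.4 FPKM attached and 12.7 and 12.7 FPKM detached, the detached libraries lying close together and below the attached ones, and fell by 0.32 ± 0.08 in log2 units (adjusted p = 0.0482). So 2 of 7 members rose, 1 fell and 4 did not pass, where 7.11% of tested genes were called, 2.05% higher and 5.06% lower. The median of the members was 0.33 beside −0.02 over all tested genes. CTSA had means of 69.3 FPKM attached and 82.6 FPKM detached and did not pass the test (0.25 ± 0.06, adjusted p = 0.0555), and it did pass with a 5 FPKM filter and under each of the 3 other scalings (adjusted p of 0.0287 to 0.0442). The CTSC call was lost without any 1 of the 8 libraries (adjusted p of 0.0592 to 0.175) and under each of the 3 other scalings (0.0619 to 0.0860). It was also lost without the filter on low values (0.0801), without an intensity trend (0.0664), with a replicate block (0.0515) and with pairs crossed by the mitochondrial locus (0.0703). The groups did not overlap for 6 of 7 members (54.0% of all tested genes). The CTSB call was lost without attached knockdown replicate 1 (0.0602) or 2 (0.0726) and without detached knockdown replicate 1 (0.0714) or 2 (0.0568).

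**Figure D3:**
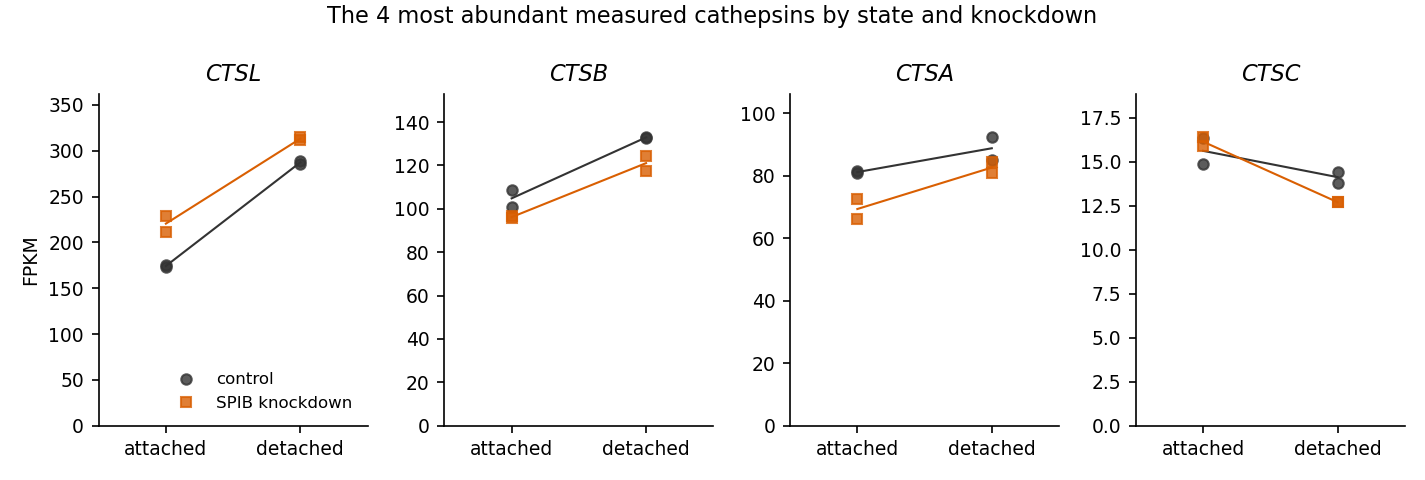
FPKM of CTSL, CTSB, CTSA and CTSC in attached and detached cells (linear axes from 0), with circles for control and squares for SPIB-knockdown libraries and lines through the means of 2 libraries. CTSL and CTSB slope upward in both lines and CTSC slopes downward, from 16.2 to 12.7 FPKM in knockdown cells.

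Averaged over control and knockdown cells, which uses all 8 libraries and is not independent of the comparisons above, the detachment effect was called for 4 of 7 members, 3 higher and 1 lower, where 15.6% of tested genes were called, 5.48% higher and 10.1% lower. The mean log2 effects were 0.61 ± 0.03 for CTSL (adjusted p = 6.99e-05), 0.33 ± 0.04 for CTSB (0.00199), 0.19 ± 0.04 for CTSA (0.0286) and −0.23 ± 0.05 for CTSC (0.0297). All 4 detached libraries lay above all 4 attached ones for CTSL and CTSB and below them for CTSC, while those of CTSA overlapped. With CTSH, the libraries did not overlap for 4 of 7 members (18.4% of all tested genes). The calls of CTSL and CTSB held without each of the 8 libraries, that of CTSA held only without attached knockdown replicate 1 or detached control replicate 1 (otherwise adjusted p of 0.0544 to 0.0901), and that of CTSC only without attached control replicate 1 (otherwise 0.0605 to 0.0892). Compared only between libraries in which the mitochondrial locus is listed at 0, and only between those in which it is not, 1 library a group, the log2 difference of CTSL on detachment was 0.71 and 0.73 in control cells and 0.46 and 0.55 in knockdown cells.

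CTSH, an aminopeptidase (chromosome 15, 79213400 to 79241916, hg19), was low. In control and in knockdown cells alike, each detached library was higher than the attached ones. CTSH measured 1.44 and 1.47 FPKM in attached control, 1.97 and 2.41 in detached control, 0.928 and 1.07 in attached knockdown and 1.47 and 1.63 in detached knockdown libraries. Its mean detachment effect of 0.36 ± 0.11 did not pass the test (adjusted p = 0.0615) and passed without an intensity trend (0.0236). The CTSH locus shares 7511 bases with MORF4L1, which was at 301 to 330 FPKM. Whether reads were counted by strand is not given, and the part of its reads in this low value was not tested. MORF4L1 itself had a mean detachment effect of 0.01 ± 0.04 (adjusted p = 0.907).

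CTSS, the endopeptidase of antigen-presenting cells that trims the invariant chain (chromosome 1, 150702672 to 150749262, hg19), differed between libraries of a group. It measured 0.328 and 1.08 FPKM in attached control, 0.621 and 0.418 in attached knockdown, 1.07 and 2.16 in detached control and 0.978 and 1.46 in detached knockdown libraries. The mean detachment effect was 0.58 ± 0.21 (limma adjusted p = 0.105). It passed in 1 alternative fit, with pairs of libraries crossed by the mitochondrial locus (0.0433), a setting chosen after seeing the data. In each group the higher CTSS value was in the library in which the mitochondrial locus is listed above 0. Compared only between libraries with that locus at 0 and only between those with it above 0, 1 library a group, the log2 difference of CTSS on detachment was 0.64 and 0.60 in control cells and 0.48 and 0.60 in knockdown cells, higher in the detached library each time. LYZ, the lysozyme gene of macrophages, stood at 1.14, 1.78 and 1.05 FPKM in the second replicates of attached control, detached control and detached knockdown cells and at no more than 0.307 FPKM in the other 5 libraries. Of 8 leukocyte markers 7 have a row of their own and 3 of these stayed below 1 FPKM in all libraries. Their summed level was 9.38 to 10.6 FPKM in attached control, 6.39 to 7.81 in attached knockdown, 6.95 to 12.5 in detached control and 6.61 to 9.16 in detached knockdown libraries. None of the 7 was at 0 in every library, and PTPRC, the pan-leukocyte marker, reached at most 0.171 FPKM. The highest by mean were CSF1R, at 2.71 to 5.68 FPKM, and ITGAM, at 1.47 to 3.98 FPKM. In each group CSF1R, LYZ and TYROBP, like CTSS, were higher in the library with the mitochondrial locus above 0. PTPRC was so in all groups but attached knockdown, where it was at 0 in both libraries. ITGAM was so only in detached cells, and CD14 in all groups but detached knockdown. AIF1 was above 0 only in attached knockdown replicate 2, where the mitochondrial locus is listed at 0. The part of these markers in the CTSS values was not tested.

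CTSO, a less studied cysteine protease (chromosome 4, 156845270 to 156875090, hg19), stayed between 1.39 and 1.98 FPKM in all 8 libraries, with a mean detachment effect of −0.06 ± 0.11 (adjusted p = 0.746, 95% interval −0.32 to 0.19). CTSZ, a carboxypeptidase also called cathepsin X (chromosome 20, 57570240 to 57582302, hg19), lay between 0.0347 and 0.337 FPKM and was not tested.

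**Figure D4:**
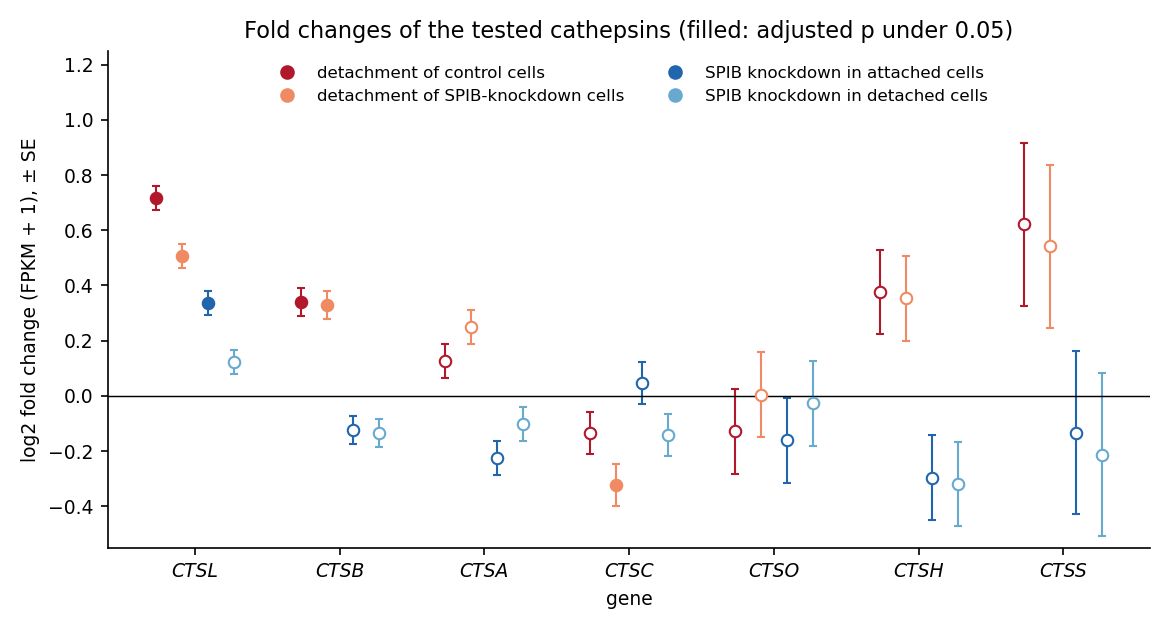
Log2 fold change on FPKM + 1 with its SE for the 7 tested cathepsins in 4 comparisons, filled where the limma adjusted p is under 0.05. CTSL lies above 0 in all 4 comparisons, from 0.12 to 0.72, and the error bars widen for the low genes CTSO, CTSH and CTSS.

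SPIB knockdown in attached cells raised CTSL and no other measured cathepsin passed the test. CTSL went from 175 and 174 to 212 and 229 FPKM, a 1.26-fold rise (log2 fold change 0.34 ± 0.04, adjusted p = 0.0135). So 1 of 7 members rose and 6 did not pass, where 1.85% of tested genes were called and 0.640% higher. The call of CTSL was lost without attached control replicate 1 (adjusted p = 0.0874) or 2 (0.11), without attached knockdown replicate 2 (0.0531) and without an intensity trend (0.0937). Within libraries with the mitochondrial locus at 0 and above 0, the log2 difference of CTSL was 0.39 and 0.29. The other values lay mostly below 0, with a median of −0.13 for the 7 members beside 0.01 over all tested genes. CTSA was at 72.4 and 66.3 FPKM in the knockdown libraries and 80.9 and 81.4 FPKM in the controls (−0.23 ± 0.06, adjusted p = 0.132), and CTSB at 96.5 and 95.8 against 101 and 109 FPKM (−0.12 ± 0.05, adjusted p = 0.283). Knockdown and control libraries did not overlap for 4 of 7 members (46.8% of all tested genes), CTSL being higher and CTSB, CTSA and CTSH lower.

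In detached cells none of the 7 cathepsins passed the test for SPIB knockdown, where 0.737% of tested genes were called. At an unadjusted p under 0.05, limma gave 2 members, CTSL and CTSB, beside 11.9% of tested genes. CTSL was at 286 and 289 FPKM in control and 315 and 311 FPKM in knockdown libraries (0.12 ± 0.04, adjusted p = 0.313), and CTSB at 133 and 133 against 125 and 118 FPKM (−0.13 ± 0.05, adjusted p = 0.357). CTSC had a value of −0.14 ± 0.08 (adjusted p = 0.529), CTSA of −0.10 ± 0.06 (0.581) and CTSH of −0.32 ± 0.15 (0.477). The groups did not overlap for 5 of 7 members (44.0% of all tested genes), CTSL being higher and the other 4 lower.

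The knockdown effect on CTSL was 0.34 in attached and 0.12 in detached cells on the log2 scale, and the difference of −0.21 ± 0.06 did not pass the test (adjusted p = 0.637, unadjusted p = 0.00942, 95% interval −0.36 to −0.07). No member passed the interaction test, where 0% of tested genes were called, and CTSL was the only member at an unadjusted p under 0.05, beside 6.68% of tested genes. The interaction values of the other 6 members lay between −0.19 for CTSC and 0.13 for CTSO. Averaged over attached and detached cells, the knockdown effect was 0.23 ± 0.03 for CTSL (adjusted p = 0.00838). Of the 7 members 1 rose and 6 did not pass, where 4.24% of tested genes were called and 1.40% higher. The call of CTSL held without each of the 8 libraries but not without an intensity trend (adjusted p = 0.0671). CTSA (−0.16 ± 0.04, adjusted p = 0.0906), CTSB (−0.13 ± 0.04, 0.103) and CTSH (−0.31 ± 0.11, 0.175) were the next by p.

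The summed level of the 8 separately measured cathepsins was 375 and 385 FPKM in attached control, 400 and 411 FPKM in attached knockdown, 523 and 535 FPKM in detached control and 537 and 531 FPKM in detached knockdown libraries. CTSL made up 46.7% and 45.1% of this sum in attached control, 52.9% and 55.8% in attached knockdown, 54.7% and 54.0% in detached control and 58.7% and 58.6% in detached knockdown libraries. Without CTSL the sum was 206 ± 8.10 FPKM in attached control, 185 ± 4.73 in attached knockdown, 241 ± 6.43 in detached control and 221 ± 1.68 in detached knockdown cells (SD, n = 2). The ratio of CTSL to CTSB, which are both length-corrected levels, was 1.66 ± 0.101 in attached control, 2.29 ± 0.139 in attached knockdown, 2.16 ± 0.0202 in detached control and 2.59 ± 0.0818 in detached knockdown cells. The detached sums thus lay above the attached ones in both control and knockdown cells, while without CTSL the sums of knockdown libraries lay below those of control libraries in the same state. These sums carry no test, and in bulk RNA a change in the mix of cells cannot be told apart from a change in RNA per cell.

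**Figure D5:**
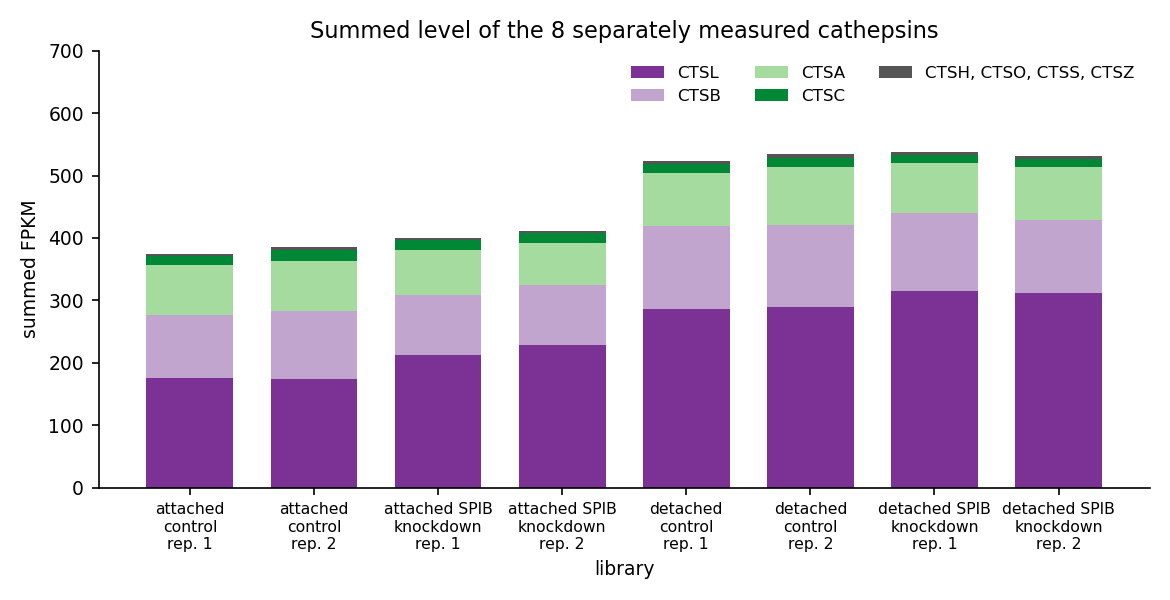
Summed FPKM of the 8 separately measured cathepsins in each library, stacked by gene (bars from 0). The 4 attached libraries reach 375 to 411 FPKM and the 4 detached ones 523 to 537 FPKM, and CTSL is the largest segment of every bar.

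The locus that merges CTSD with IFITM10 and RP11-295K3.1 (XLOC_008896, chromosome 11, 1753640 to 1785222, hg19) is outside the rule for members and is given for the locus only. It measured 77.0 and 68.7 FPKM in attached control, 59.3 and 63.0 in attached knockdown, 80.4 and 86.1 in detached control and 68.9 and 71.4 in detached knockdown libraries. Knockdown libraries lay below control libraries in each state, with a mean log2 knockdown effect of −0.25 ± 0.05 (adjusted p = 0.0353), and the mean detachment effect was 0.19 ± 0.05 (adjusted p = 0.0367). The knockdown call held only without attached control replicate 2 (otherwise 0.0672 to 0.123) and the detachment call only without attached control replicate 1 (otherwise 0.0557 to 0.114). The locus that merges CTSK with ARNT (XLOC_003959, chromosome 1, 150768684 to 150849244, hg19) lay between 61.5 and 76.7 FPKM and passed no test. How much of either value belongs to the cathepsin, for CTSK the collagen-cutting protease of osteoclasts, cannot be told from these files.

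Of 5 other family genes, CTSV and CTSF were tested and passed none of the 7 comparisons, where 0% to 15.6% of all tested genes were called. The genes CTSW, CTSG and CTSE stayed at or below 0.264 FPKM. CTSV, the cysteine protease most like cathepsin L, measured 11.1 and 15.0 FPKM in attached control, 10.8 and 9.68 in attached knockdown, 14.02 and 14.7 in detached control and 13.7 and 13.3 in detached knockdown libraries. Its mean detachment effect was 0.26 ± 0.09 (adjusted p = 0.111). Of the 50-base words of CTSL transcripts in GENCODE release 29, 0.641% occur in transcripts of another gene, among them CTSL pseudogenes and none in CTSV. For CTSA this share was 23.7%, with NEURL2 and PLTP among the genes sharing them, whose rows in the files did not exceed 0.908 FPKM. The CTSB locus overlaps that of FDFT1 by 2696 bases. FDFT1, the squalene synthase gene, was at 39.3 to 48.4 FPKM. Its mean detachment effect of −0.07 ± 0.05 did not pass the test (adjusted p = 0.347). The part of FDFT1 reads in the CTSB level was not tested.

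Of 12 listed inhibitors of the cysteine cathepsins, 8 have a row of their own and 2 were abundant enough to test. CST3, the secreted cystatin C, was at 57.8 to 63.5 FPKM, and CSTB, the cytosolic cystatin B, at 68.5 to 79.3 FPKM. Neither passed in any of the 7 comparisons, where 0% to 15.6% of all tested genes were called. Their mean detachment effects were −0.04 ± 0.04 for CST3 (adjusted p = 0.559, 95% interval −0.13 to 0.05) and 0.04 ± 0.04 for CSTB (adjusted p = 0.532, 95% interval −0.05 to 0.13). The summed FPKM of the 7 separately measured cysteine cathepsins among the 10 listed genes was set against that of CST3 and CSTB. It was 2.21 ± 0.0741 times as high in attached control, 2.52 ± 0.0269 in attached knockdown, 3.38 ± 0.0303 in detached control and 3.25 ± 0.168 in detached knockdown cells (SD, n = 2). This sum leaves out CTSV, at 9.68 to 15.0 FPKM, and CTSF, at 4.48 to 6.38 FPKM. CST6, another secreted cystatin, was too low to be tested. It measured 0.760 and 0.749 FPKM in attached control, 1.09 and 0.570 in attached knockdown, 0.335 and 0.353 in detached control and 0.279 and 0.281 in detached knockdown libraries.

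Among 14 genes for the sorting and processing of cathepsins, 11 were tested. With detachment 1 rose in control cells (3.15% of all tested genes called), and 1 rose and 1 fell in knockdown cells (7.11% called). None was called for knockdown in attached cells (1.85% of all tested genes called) or in detached cells (0.737% called). At an unadjusted p under 0.05, limma gave 3 of the 11 for knockdown in attached cells (17.1% of all tested genes) and 1 of the 11 in detached cells (11.9%). PSAP, which encodes the precursor of the saposins and the binding partner of procathepsin D, measured 763 and 733 FPKM in attached control and 843 and 848 FPKM in detached control libraries and rose by 0.18 ± 0.03 on the log2 scale (adjusted p = 0.032). In knockdown cells it went from 675 and 670 to 768 and 784 FPKM (0.21 ± 0.03, adjusted p = 0.0123), and its mean knockdown effect was −0.14 ± 0.02 (adjusted p = 0.0164). The call in control cells was lost without any 1 of the 8 libraries (adjusted p of 0.0526 to 0.177). That in knockdown cells was lost without attached knockdown replicate 1 (0.0524) or 2 (0.0671) or detached knockdown replicate 2 (0.0855), and the mean knockdown call without attached control replicate 1, attached knockdown replicate 2, either detached control library or detached knockdown replicate 1 (0.0525 to 0.0687).

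The 2 mannose 6-phosphate receptors had mean detachment effects of opposite sign. IGF2R, the cation-independent receptor, measured 45.0 and 44.2 FPKM in attached control, 46.1 and 46.9 in attached knockdown, 52.0 and 52.1 in detached control and 48.8 and 51.2 in detached knockdown libraries, and rose by 0.16 ± 0.04 in the mean over control and knockdown cells (adjusted p = 0.0229). M6PR, the cation-dependent receptor, measured 245 and 241, 269 and 278, 221 and 237, and 234 and 228 FPKM in the same order of groups and fell by 0.16 ± 0.03 (adjusted p = 0.014). No detached library reached into the attached range for either gene. The IGF2R call held only without detached knockdown replicate 1 (otherwise adjusted p of 0.0522 to 0.0739). In knockdown cells alone the M6PR effect was −0.24 ± 0.04 (adjusted p = 0.0219), a call lost without any 1 of the 4 knockdown libraries (0.0643 to 0.118), with quantile normalization (0.130) and with rescaling (0.0506). The call of the mean M6PR effect held without each of the 8 libraries and was lost with quantile normalization (0.147) and without an intensity trend (0.0676).

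The vacuolar ATPase, the proton pump that acidifies lysosomes, gave no call for detachment. Of 16 listed subunit genes 15 were tested. None passed for detachment in control cells (3.15% of all tested genes called) or knockdown cells (7.11%). The median log2 fold change in control cells was −0.03 beside −0.01 over all tested genes. At an unadjusted p under 0.05, limma gave 1 of the 15, lower, in control cells (20.5% of all tested genes) and 3 of the 15, higher, in knockdown cells (24.3%). ATP6V0E1, a membrane subunit, was the single gene of the 15 called, for the mean knockdown effect, where 4.24% of all tested genes were called. Its effect was −0.32 ± 0.06 (adjusted p = 0.0332). It measured 94.3 and 103 FPKM in attached control, 72.9 and 86.2 in attached knockdown, 90.8 and 95.9 in detached control and 71.6 and 77.2 in detached knockdown libraries. That call held only without attached knockdown replicate 2 (otherwise adjusted p of 0.0659 to 0.117).

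Among 16 genes of the TFEB family and its control, 11 were tested. TFEB, a transcription factor that switches on lysosomal genes, measured 10.9 and 11.1 FPKM in attached control, 7.95 and 7.10 in attached knockdown, 10.4 and 9.70 in detached control and 10.5 and 12.0 in detached knockdown libraries. The attached knockdown libraries were the low ones. TFEB rose with detachment in knockdown cells (0.52 ± 0.10, adjusted p = 0.0249), did not pass for detachment in control cells (−0.12 ± 0.10, adjusted p = 0.542) or for knockdown in attached cells (−0.50 ± 0.10, adjusted p = 0.0589), and had an interaction value of 0.64 ± 0.14 that did not pass (adjusted p = 0.602). LAMTOR2, a subunit of the Ragulator complex on the lysosomal surface, rose in the mean over control and knockdown cells (0.23 ± 0.06, adjusted p = 0.0442), a call that held only without attached control replicate 2 (otherwise 0.0631 to 0.130). The TFEB call was lost without any 1 of the 4 knockdown libraries (adjusted p of 0.0581 to 0.134).

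The genes whose values over the 8 libraries were most like those of CTSL were HLA-L, GDF15, SAP30L, AC010209.1 and KCNF1, by the root mean square difference on the log2(FPKM + 1) scale after each gene lost its own mean. This difference was 0.08 to 0.10 for the 5 genes, beside a median of 0.37 over the 11462 single-symbol genes compared and a spread of 0.33 for CTSL itself. Since these genes were chosen by this likeness, an order of groups shared with CTSL is no separate result. GDF15, a secreted stress cytokine, measured 11.4 and 12.4 FPKM in attached control, 15.7 and 18.4 in attached knockdown, 19.4 and 21.8 in detached control and 24.7 and 25.2 in detached knockdown libraries. HLA-L, an HLA class I pseudogene that may share reads with its relatives and is therefore uncertain, went from 9.89 and 11.04 FPKM in attached control to 15.7 and 17.7 FPKM in detached control libraries. SAP30L, a subunit of a histone deacetylase complex, lay between 12.2 and 23.0 FPKM. AC010209.1 and the potassium channel gene KCNF1 did not exceed 1.56 FPKM.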

How the data were processed

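The authors aligned reads with HISAT and made gene levels with Cuffnorm on hg19, per the submitters' processing notes, which give no versions, and the deposited values are FPKM per locus and library. Absolute depth is unknown, so no counting interval is given. Rows of 1 symbol were summed, and a row that merges several symbols was kept as a locus. Sample groups come from the labels. Genes with at least 1 FPKM in at least 2 of 8 libraries (13438) were tested on log2(FPKM + 1), which understates changes of low genes, with limma 3.58.1 in R 4.3.3. The model had 1 mean per group, a variance that follows intensity and 7 contrasts, with Benjamini-Hochberg adjustment over all tested genes and a threshold of 0.05. The residual degrees of freedom were 4. The fit was tested on simulated data. Python 3.11.15 was used for tables and sequences. The members and gene lists were chosen with earlier results of these data known. Named were all members, other family genes, list genes called in any comparison, the most abundant inhibitors and the 5 genes most like CTSL. FDFT1, MORF4L1, NEURL2, PLTP, LYZ, CSF1R, ITGAM and CD14 were named for their position or after their values were seen. Alternatives changed the pseudocount, the filter, the scaling, the variance model and the block, and left out each library.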

Additional observations from a re-analysis of the deposited data

How the results depend on the processing

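CTSL kept its call for detachment in control cells, in knockdown cells and in their mean under every alternative run. The count of called genes moved more. Without the filter on low values it was 190 for detachment in control cells, 476 in knockdown cells, 110 for knockdown in attached cells, 61 in detached cells, 1274 for the mean detachment effect (with 2 cathepsins) and 333 for the mean knockdown effect. Without an intensity trend the first 4 counts were 120 (1 cathepsin), 348 (1), 66 (0) and 26, and that of the mean knockdown effect was 262 (0 cathepsins). Leaving out 1 library gave, in the same order, 56 to 270, 150 to 723, 38 to 143, 10 to 69, 1109 to 1439 and 226 to 334 genes, and 0 to 3 for the interaction, with 1 to 2, 1 to 2, 0 to 1, 0, 2 to 3, 1 and 0 cathepsins. Replicate differences correlated at 0.174 to 0.267 among attached control, detached control and detached knockdown cells. Between attached knockdown cells and each of these groups they correlated at −0.185 to −0.139. The sign thus differed for attached knockdown cells, and correlations this weak cannot show whether or how samples were paired. With the replicate block 334, 903, 198, 70, 2039 and 561 genes were called, and 0 for the interaction. With pairs crossed by the mitochondrial locus, chosen after seeing the data, the block gave 251 genes for detachment in control cells, 135 for knockdown in attached and 65 in detached cells. For the mean detachment effect it gave 1813 genes in place of 2093 and 5 cathepsins in place of 4, the added one being CTSS.

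Signs turned only for values that passed no test, and the cause was not tested. For the interaction, CTSB was 0.0102 with quantile normalization, 0.00479 with rescaling and −0.0676 to 0.0428 without 1 library in turn, CTSH was 0.0365 with a pseudocount of 0.1 and −0.121 to 0.0762 without 1 library, and CTSS was −0.404 to 0.244 without 1 library. For knockdown in attached cells, leaving out 1 library gave −0.0182 to 0.110 for CTSC and −0.458 to 0.191 for CTSS. In detached cells it gave −0.517 to 0.0906 for CTSS and −0.0791 to 0.0259 for CTSO. For detachment of knockdown cells CTSO was −0.0690 with quantile normalization and −0.0520 to 0.0619 without 1 library. With 2 libraries a group and unknown depth, small changes of genes near 1 FPKM could not be resolved.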
